A study of Rattus norvegicus with 20 samples.

Results

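Genes used to mark monocytes and macrophages were followed in the whole blood of healthy rats on 4 diets. They were the rows of the count table that carry 1 of 9 gene symbols: Csf1r, Cd14, Fcgr1a, Fcgr3a, Cd163, Cd68, Lyz2, Spi1 and Cebpb. All 9 are among the 32882 genes of the table, no symbol is repeated, and all 9 passed the filter on low counts, which kept 16734 genes. Male wild-type Fischer 344 rats were fed for 20 days, and their labels give an age of 8 weeks. The paper states that they arrived at 4 weeks of age and acclimated for a week before the diets, so that 8 weeks is not the age at the start of feeding. The CSAA group (n = 5) received a choline-sufficient, amino acid-defined diet as the control. The same diet carried resveratrol (RSV) at 1.2 g/kg in CSAA+RSV (n = 5), pterostilbene (PTS) at 1.34 g/kg in CSAA+PTS (n = 5) and chlorogenic acid (CGA) at 1.9 g/kg in CSAA+CGA (n = 5), in equal molar amounts. CSAA+RSV Rat4 was left out of the comparisons, because its library held 861072 reads against 24036703 to 36743103 in the other 19 rats. Each rat gave a single blood sample, taken behind the eye into K2EDTA.

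Monocytes are made in the bone marrow, circulate in blood and can become macrophages once they enter tissues. Their survival depends on the CSF1 receptor, their identity on transcription factors such as PU.1 (Spi1) and C/EBPβ (Cebpb), and their work on receptors for microbial products, for antibody-coated particles and for debris, whose cargo is broken down in lysosomes. None of the genes is private to monocytes: neutrophils carry Cd14, Lyz2, Spi1, Cebpb and Fc receptors, natural killer cells carry CD16, and Cd163 and Cd68 are at their highest in tissue macrophages. In whole blood, fewer cells of a type and less RNA per cell cannot be told apart.

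Promoter sequence is shown for Lyz2, Cd68 and Fcgr3a, whose levels varied with those of other genes of the set and whose starts lie close to a match to the core recognized by PU.1, itself encoded by a gene of the set, Spi1. With Spi1 itself, Pearson's r over 19 rats was 0.603 for Lyz2, 0.643 for Cd68 and only 0.057 for Fcgr3a. The 150 bases before each annotated start are printed 5′ to 3′ on the strand of the gene (RefSeq, GRCr8), with GAGGAA or its reverse complement TTCCTC in capitals. They lie at chr7:54798012-54798161 (minus strand), chr10:54882442-54882591 (minus strand) and chr13:85782486-85782635 (plus strand).
Lyz2: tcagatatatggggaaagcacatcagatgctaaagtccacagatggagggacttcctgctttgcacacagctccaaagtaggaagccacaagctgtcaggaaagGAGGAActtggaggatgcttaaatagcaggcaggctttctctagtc
Cd68: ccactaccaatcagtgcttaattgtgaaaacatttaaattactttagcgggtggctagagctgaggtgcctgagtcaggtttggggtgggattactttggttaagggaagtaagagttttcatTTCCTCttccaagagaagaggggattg
Fcgr3a: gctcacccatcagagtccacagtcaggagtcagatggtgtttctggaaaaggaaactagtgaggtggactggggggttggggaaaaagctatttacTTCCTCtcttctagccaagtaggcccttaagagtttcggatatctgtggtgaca
The match ends 41 bases before the start in Lyz2, 22 bases before it in Cd68 and 49 bases before it in Fcgr3a. RefSeq promoters were matched for 7 of the 9 genes (not Fcgr1a or Spi1). GAGGAA was found on either strand within 250 bases before the start in 5 of those 7 (Lyz2, Cd68, Fcgr3a, Csf1r and Cd14), and in 23.3% of 33469 promoters of the same length. A C/EBP-type core, TTGCNNAA on either strand, was found in Lyz2 among the 7 and in 9.22% of all promoters. These matches describe the letters and are not measured binding sites.

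Read per length, Lyz2 stood far above the rest. Its mean was 990.1 RPKM (CPM divided by the gene length in kilobases; SD 168.4, n = 19), the 98.9th percentile of the tested genes. Csf1r followed at 23.07 RPKM (SD 3.36) and Fcgr1a at 19.3 RPKM (SD 4.29), then Fcgr3a at 8.06 RPKM (SD 2.70), Cebpb at 4.66 (SD 1.89), Spi1 at 4.39 (SD 1.10), Cd68 at 3.11 (SD 0.9), Cd14 at 1.36 (SD 0.545) and Cd163 at 0.0465 RPKM (SD 0.061). Neighbours in this order were compared within each rat: Cebpb was above Spi1 in 7 of 19 rats and Csf1r above Fcgr1a in 16 of 19, so the order of the first pair did not hold beyond the spread. Cd68 was above Cd14 in 18 of 19 rats, and each of the other 5 neighbouring pairs kept its order in 19 of 19.

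**Figure D1:**
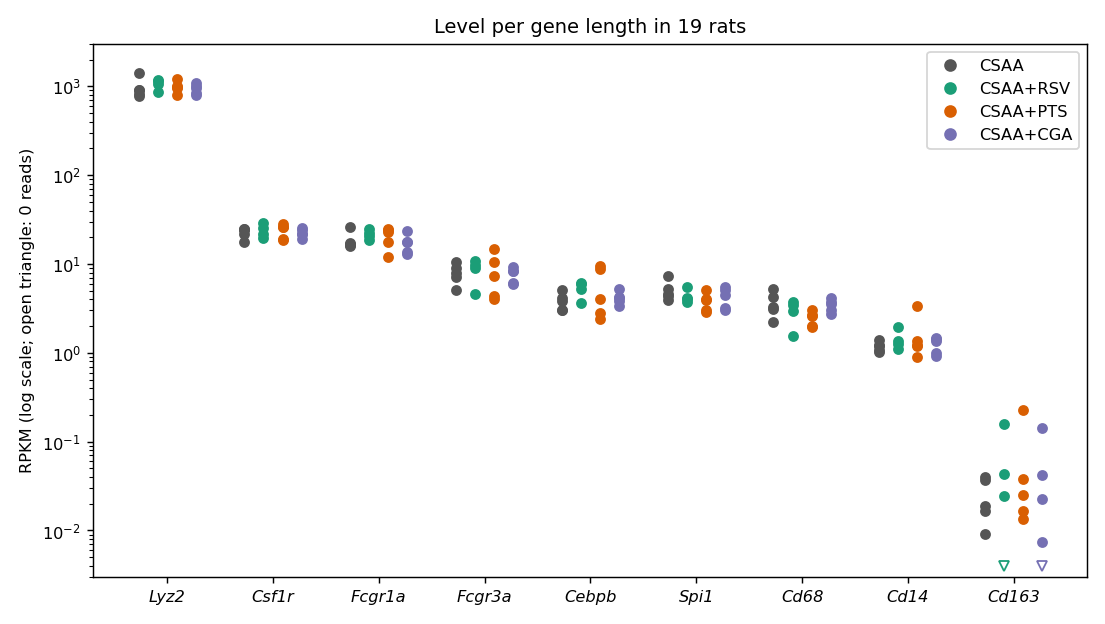
Level per gene length (RPKM, log axis) of the 9 genes in 19 rats, coloured by diet and ordered by mean; open triangles at the foot mark rats with 0 reads. Lyz2 lies near 990.1 RPKM and Cd163 near 0.0465 RPKM, and in each column the diets intermingle.

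The label was checked against lists of circulating monocyte and resident macrophage genes. Of the 15 listed monocyte genes 13 were in the table and 11 passed the filter on low counts: Itgal (CD11a) averaged 84.1 CPM, Itgax (the integrin CD11c) 78.2 CPM, Itgam (CD11b) 27.1 CPM and Cx3cr1 (the fractalkine receptor) 5.33 CPM, while Ly6c was listed at 0 in all 19 rats and Ace averaged 0.126 CPM. The ferritin heavy chain gene Fth1 was listed at 0 in all 19 rats too, beside the light chain Ftl1 at 1040 CPM. Whether such rows of 0 mean absent RNA was not tested. Genes of resident macrophages were mostly near the floor: Marco at 0.0464 CPM, C1qa at 0.195 CPM, Mertk at 0.36 CPM and Mrc1 (the mannose receptor) at 0.747 CPM, with Adgre1 (an adhesion receptor) at 16.6 CPM and Clec4f at 6.56 CPM as the exceptions. Cd163, at a mean of 0.198 CPM, belonged with these. The monocyte genes at these levels are shared with lymphocytes, natural killer cells or neutrophils, so that the values do not assign the 9 genes to monocytes. Of the genes named here as markers, Itgax, Itgam, Cx3cr1, Ly6c, Ace, Marco, C1qa, Mertk and Mrc1 were picked after their values were seen. The 14 neutrophil markers in the table had a summed level of 448.4 to 1237 CPM. Of them 12 were tested, and S100a8 and S100a9 made up 77.8% of the summed mean of these 12. Among the 12, 2 were as low as the macrophage genes, Mpo at 0.143 CPM and Ltf at 0.283 CPM.

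None of the 9 genes differed between diets at an FDR of 0.05 in any of the 4 comparisons. With edgeR, 0 of 16734 genes (0%) were called in PTS versus CSAA, in RSV versus CSAA, in CGA versus CSAA and in PTS versus RSV. DESeq2 called 6 genes in PTS versus CSAA and 1 in PTS versus RSV, limma called 26 and 1, and both called 0 in the other comparisons. At an unadjusted p under 0.05, PTS versus CSAA had 1 of the 9, Cd68, beside 1269 of all genes (7.58%). The other comparisons had 0 of 9, beside 355 genes (2.12%) for RSV, 107 (0.639%) for CGA and 512 (3.06%) for PTS versus RSV. Leaving out 1 rat moved these counts to between 838 (without CSAA+PTS Rat3) and 1797 (without CSAA+PTS Rat5) for PTS, 236 (without CSAA+RSV Rat3) and 683 (without CSAA+RSV Rat1) for RSV, 83 (without CSAA+CGA Rat2) and 217 (without CSAA+CGA Rat1) for CGA, and 402 (without CSAA+PTS Rat1) and 1268 (without CSAA+PTS Rat5) for PTS versus RSV. DESeq2 and limma called 0 of the 9 in each comparison. The values of every one of the 9 genes overlapped between the groups in all 4 comparisons, while groups did not overlap for 1.39%, 0.741%, 0.239% and 0.424% of all genes in the same order. The lowest p that the exact permutation test allows here is 0.00794. Each sample is a rat of its own, and the p-values measure the spread between these animals. Rats shared cages, which the tests do not take into account.

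**Figure D2:**
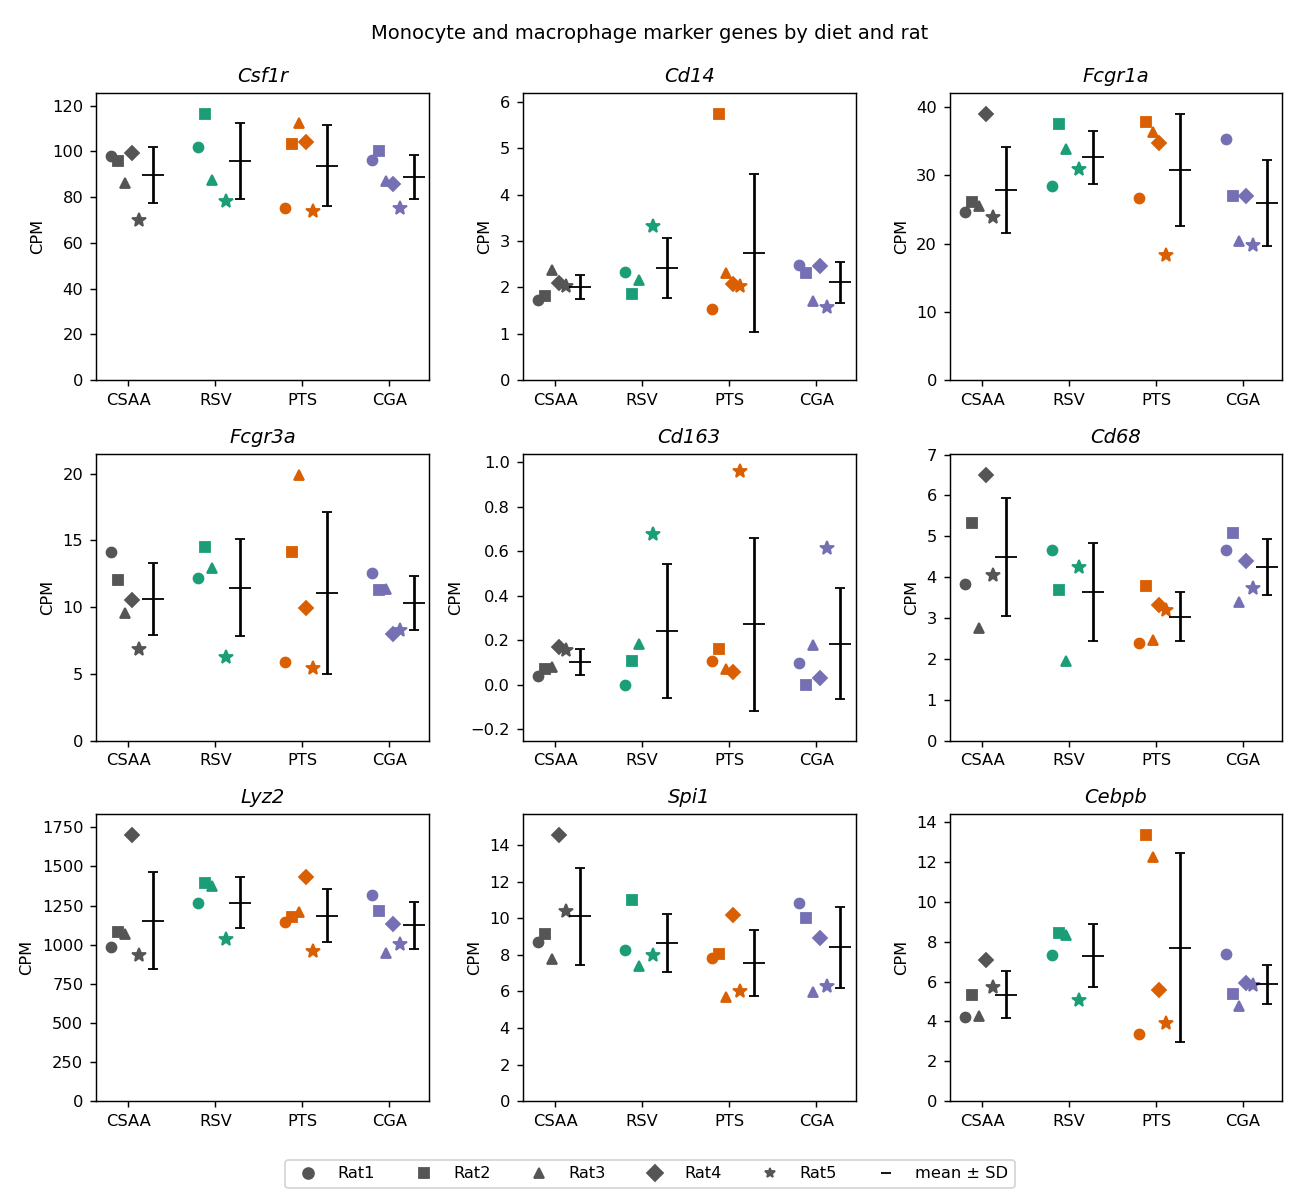
CPM of each gene by diet, 1 panel a gene and 1 symbol a rat, with the mean and SD beside each group (n = 5, and 4 for RSV); the Cd163 axis runs below 0 to show the SD. The groups overlap in every panel, and the fifth rats (stars) sit low for Csf1r and Fcgr3a and, in 3 of 4 diets, high for Cd163.

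Csf1r encodes the receptor for CSF1 and IL-34, on which monocytes and macrophages depend. It was at 97.8, 95.6, 86.3, 99.2 and 69.9 CPM in CSAA Rat1 to Rat5, and at 75.2, 103, 112.3, 103.9 and 74.0 CPM in CSAA+PTS Rat1 to Rat5. In CSAA+RSV it was at 101.8, 116.2, 87.65 and 78.1 CPM (Rat1, Rat2, Rat3 and Rat5), and in CSAA+CGA at 96.1, 100, 87.05, 85.8 and 75.2 CPM. The fifth rat was the lowest of each diet, and its 4 values were 69.9 to 78.1 CPM against 75.2 to 116.2 CPM in the other 15 rats. Csf1r varied least of the set, with a coefficient of variation of 14.6% over 19 rats against a median of 22.7% for all tested genes. Its log2 fold change was 0.06 for PTS (SE 0.143, 95% interval -0.24 to 0.36), 0.10 for RSV (interval -0.22 to 0.41) and -0.015 for CGA (interval -0.32 to 0.28), none past the threshold in edgeR.

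Cd14, the co-receptor that hands lipopolysaccharide to TLR4, was low, with 43 to 141 reads a rat. It was at 1.72, 1.82, 2.38, 2.102 and 2.04 CPM in CSAA and at 1.54, 5.74, 2.32, 2.08 and 2.04 CPM in CSAA+PTS. It was at 2.335, 1.86, 2.15 and 3.33 CPM in CSAA+RSV and at 2.49, 2.32, 1.70, 2.455 and 1.57 CPM in CSAA+CGA. CSAA+PTS Rat2 alone stood high, and the remaining PTS rats lay among the controls or, for Rat1, below them. In that rat the summed neutrophil markers were also the highest of all 19, at 1237 CPM against a median of 667.1 CPM, with S100a8 at 355 CPM. Another marker of that list, Csf3r, was at 38.7 CPM there, within the 36.1 to 92.8 CPM of CSAA. The sums of platelet markers (1866 CPM) and of lysosomal genes (5043 CPM) were the highest in the same rat too. The part of these genes in the Cd14 value was not tested. The log2 fold change for PTS was 0.44 (SE 0.282, edgeR adjusted p = 0.694), and 0.01 without CSAA+PTS Rat2; for RSV it was 0.27 and for CGA 0.06.

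Fcgr1a encodes the high-affinity receptor for IgG (CD64). It was at 24.7, 26.1, 25.5, 39.0 and 23.95 CPM in CSAA and at 26.75, 37.8, 36.4, 34.8 and 18.3 CPM in CSAA+PTS. It was at 28.5, 37.5, 33.8 and 30.9 CPM in CSAA+RSV and at 35.4, 27.0, 20.4, 27.0 and 19.8 CPM in CSAA+CGA. All 4 RSV rats and 4 of the 5 PTS rats were above 4 of the 5 control rats, while CSAA Rat4 was the highest of all 19. The log2 fold change was 0.23 for RSV (SE 0.206, interval -0.20 to 0.66), 0.15 for PTS (interval -0.26 to 0.55) and -0.10 for CGA (interval -0.51 to 0.30), none past the threshold.

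Fcgr3a encodes a low-affinity IgG receptor, listed for the rat with the synonyms CD16-2 and Fcgr4. It was at 14.1, 12.0, 9.57, 10.5 and 6.84 CPM in CSAA and at 5.91, 14.1, 19.9, 9.90 and 5.42 CPM in CSAA+PTS. It was at 12.2, 14.5, 12.9 and 6.25 CPM in CSAA+RSV and at 12.6, 11.3, 11.3, 7.96 and 8.30 CPM in CSAA+CGA. The PTS rats held both the highest value, in Rat3, and the lowest, in Rat5. The mean differed little: the log2 fold change was 0.06 for PTS (SE 0.309, interval -0.59 to 0.70), 0.11 for RSV and -0.05 for CGA. For PTS it was -0.27 without CSAA+PTS Rat3 and 0.23 without Rat5. Fc gamma receptor genes resemble each other in sequence, and the sources used here do not say how reads that match several of them were counted.

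Cd163, the scavenger receptor that takes up hemoglobin bound to haptoglobin, was nearly absent, with 129 reads over 19 rats. It was at 0.0391, 0.07005, 0.0807, 0.170 and 0.157 CPM in CSAA (1 to 6 reads a rat) and at 0.107, 0.163, 0.0714, 0.05775 and 0.962 CPM in CSAA+PTS. It was at 0, 0.105, 0.1825 and 0.677 CPM in CSAA+RSV and at 0.0969, 0, 0.179, 0.0315 and 0.614 CPM in CSAA+CGA. The fifth rats of PTS, RSV and CGA were above every other rat, and the fifth CSAA rat was not. The log2 fold change was 1.35 for PTS (SE 1.02, interval -0.79 to 3.50), 1.19 for RSV (SE 1.07) and 0.81 for CGA (SE 1.03). Without PTS Rat5 that for PTS was -0.13, and without RSV Rat5 that for RSV was -0.18. Without the CGA Rat5 that for CGA was -0.46, so the sign of all 3 rested on 1 rat each.

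The fifth rats also differed in other genes. The rat numbers in the sample descriptions run in sets of 4 over the diets, but the fifth rat of CSAA carries number 17 and those of RSV, PTS and CGA 22, 23 and 24, so that the CSAA rat comes from another set. They had reads in 25104 to 29543 genes of the table against 19600 to 23632 in the other 15 rats, and 4.94% of tested genes had all 4 above the other 15, against 0.52% below. Connective tissue markers such as Col3a1 and Col1a1 had higher means in the fifth rats for 6 of 6 genes, all by over 2 times, and resident macrophage genes for 8 of 10, of which 5 by over 2 times. CSAA+CGA Rat5 had the highest sum of connective tissue markers, 184.4 CPM against 19.5 to 32.4 CPM in the fifth rats of the other diets and 50.9 CPM in CSAA Rat4; without it 6 of 6 were higher, 4 of them by over 2 times. Monocyte genes had higher means there for 0 of 11 (1 of 11 without CSAA+CGA Rat5). Among the 9 genes of the set, Cd163 alone had a higher mean in the fifth rats, and 2 of 9 had one without CSAA+CGA Rat5. How many of all tested genes had a higher mean in the fifth rats was not counted, so that these list counts stand without a background share. The part of these differences in the Cd163 values was not tested.

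Cd68, a glycoprotein of lysosome membranes in phagocytes, was the gene of the set with the lowest p. It was at 3.84, 5.32, 2.745, 6.50 and 4.05 CPM in CSAA and at 2.40, 3.78, 2.46, 3.32 and 3.21 CPM in CSAA+PTS. It was at 4.67, 3.68, 1.935 and 4.24 CPM in CSAA+RSV and at 4.65, 5.09, 3.38, 4.41 and 3.73 CPM in CSAA+CGA. Of the PTS rats, 2 were below all controls and the other 3 within their range, of whom Rat2, Rat4 and Rat5 were above CSAA Rat3. Against the CSAA rat of the same number, PTS was lower in 5 of 5, as it was for Spi1 and for 6.99% of all genes; the exact paired permutation p, two-sided, was 0.0625 for each, the smallest that 5 pairs can give. The log2 fold change for PTS was -0.57 (SE 0.233, interval -1.06 to -0.08, edgeR unadjusted p = 0.0245, adjusted p = 0.642), and an exact permutation test, two-sided, gave p = 0.0714. Leaving out 1 rat at a time gave -0.67 (without CSAA Rat3) to -0.40 (without CSAA Rat4). With the replicate number as a block, which paired these rats, it was -0.54 (unadjusted p = 0.00635, edgeR adjusted p = 0.273), beside 12.2% of all genes at an unadjusted p under 0.05. Without the fifth rats, whose numbers do not match, the block gave -0.60 (unadjusted p = 0.0099, edgeR adjusted p = 0.298). The change for RSV was -0.31 (interval -0.82 to 0.21) and that for CGA -0.08 (interval -0.56 to 0.40).

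Lyz2 encodes lysozyme, which cuts the cell walls of bacteria. It was at 985.7, 1080, 1070, 1699 and 932.3 CPM in CSAA and at 1147, 1177, 1211, 1430 and 958.5 CPM in CSAA+PTS. It was at 1264, 1397, 1378 and 1038 CPM in CSAA+RSV and at 1315, 1214, 948.2, 1134 and 1007 CPM in CSAA+CGA. CSAA Rat4 was the highest of all rats and the control mean rested on it: without it the log2 fold change was 0.32 for RSV, 0.22 for PTS and 0.14 for CGA, against 0.14, 0.04 and -0.04 with it. The gene has a close relative on the same chromosome, Lyc2, at a mean of 492.9 CPM, and Lyz2 and Lyc2 varied together over the rats (r = 0.988 over 15 rats, a description). The sources used here do not say how reads shared by such relatives were divided, so that the Lyz2 level is uncertain.

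Spi1 encodes PU.1, the transcription factor that myeloid and B cells require. It was at 8.69, 9.14, 7.75, 14.5 and 10.4 CPM in CSAA and at 7.84, 8.06, 5.67, 10.2 and 6.005 CPM in CSAA+PTS. It was at 8.27, 10.98, 7.37 and 7.965 CPM in CSAA+RSV and at 10.85, 10.0, 5.95, 8.91 and 6.29 CPM in CSAA+CGA. CSAA Rat4 was the highest of the 19, and 2 PTS rats, Rat3 and Rat5, were below all controls, as were 2 CGA rats. The log2 fold change for PTS was -0.42 (SE 0.206, interval -0.85 to 0.01, edgeR unadjusted p = 0.0548, adjusted p = 0.656) and the exact permutation p, two-sided, was 0.111. It was -0.25 without CSAA Rat4 and -0.43 with the replicate block (unadjusted p = 0.0067, edgeR adjusted p = 0.273), or -0.34 without the fifth rats (unadjusted p = 0.041, edgeR adjusted p = 0.383). In RefSeq on GRCr8, Spi1 overlaps LOC120101909 and Fcgr1a overlaps LOC134485653. Whether these overlaps exist among the Ensembl genes of rn6, on which the reads were counted, was not checked. Where they do, reads of such genes cannot be told apart without a stated strand setting. For CGA the change was -0.27 (interval -0.70 to 0.16) and for RSV -0.23 (interval -0.68 to 0.23).

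Cebpb encodes C/EBPβ, a transcription factor induced in monocytes and macrophages on activation. It was at 4.23, 5.32, 4.28, 7.10 and 5.74 CPM in CSAA and at 3.37, 13.35, 12.2, 5.60 and 3.935 CPM in CSAA+PTS. It was at 7.32, 8.455, 8.36 and 5.08 CPM in CSAA+RSV and at 7.36, 5.40, 4.755, 5.92 and 5.845 CPM in CSAA+CGA. The PTS rats split, Rat2 and Rat3 lying far above every other rat and Rat1 and Rat5 below every control, whereas 3 of the 4 RSV rats were above all controls. The log2 fold change was 0.52 for PTS (SE 0.31, interval -0.13 to 1.17) and 0.26 without CSAA+PTS Rat2. For RSV it was 0.45 (SE 0.327, interval -0.24 to 1.13, exact permutation p = 0.0714), and for CGA 0.13 (interval -0.52 to 0.78).

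Pterostilbene is resveratrol with methoxy groups in place of a pair of its hydroxyl groups, and both were given in equal molar amounts for the same time. Of the 9 genes, 0 passed the threshold in PTS versus RSV. The log2 differences, PTS minus RSV, ran from -0.26 for Cd68 (interval -0.78 to 0.25) to 0.17 for Cd14 (interval -0.45 to 0.79). The tightest was that of Csf1r, -0.03 (interval -0.35 to 0.28), and the widest that of Cd163, 0.16 (interval -1.93 to 2.25). Lyz2 had -0.10 (interval -0.49 to 0.29), Fcgr1a -0.08 (interval -0.52 to 0.35), Fcgr3a -0.05 (interval -0.74 to 0.63), Spi1 -0.20 (interval -0.65 to 0.26) and Cebpb 0.07 (interval -0.61 to 0.76). A p that misses the threshold does not show that both compounds act alike, and the intervals give the sizes that these samples could not tell from 0. The comparisons with CSAA share the control rats. Their values for the set were 7 of 9 above 0 with a median of 0.06 for PTS (52.8% of all genes, median 0.02), 7 of 9 with a median of 0.14 for RSV (53.3%, median 0.02) and 3 of 9 with a median of -0.04 for CGA (48.4%, median -0.01). For PTS versus RSV they were 3 of 9, with a median of -0.05 (49.9%).

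**Figure D3:**
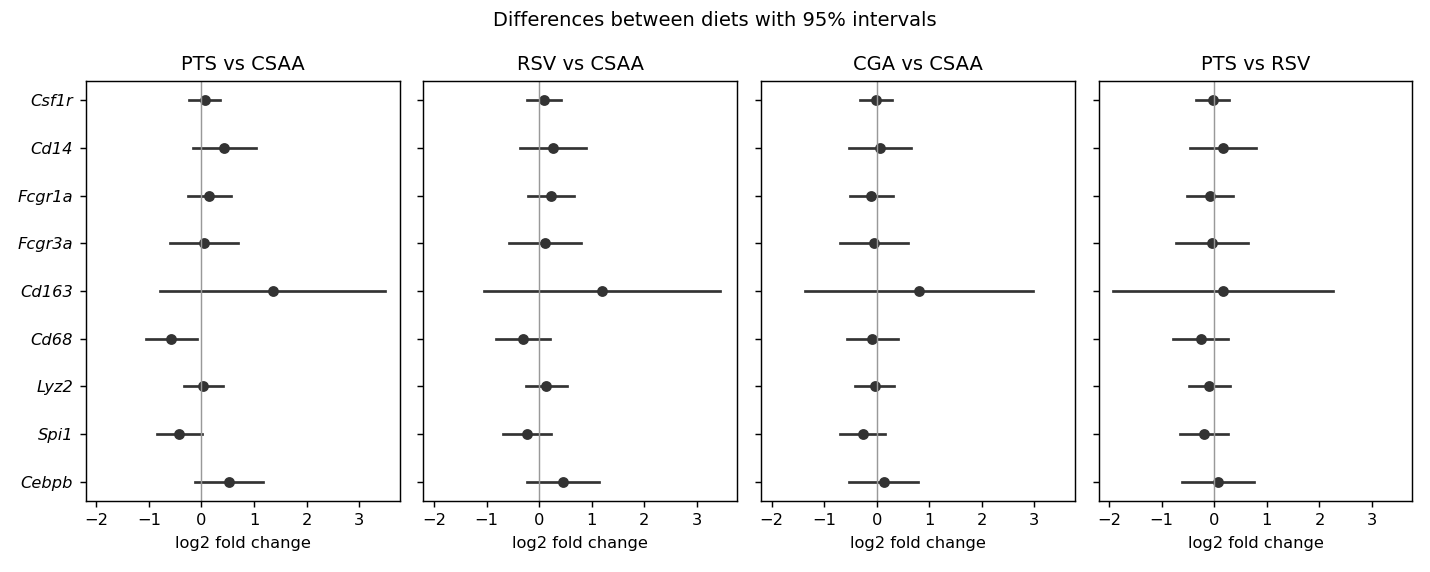
Log2 fold change (points) with its 95% interval (lines) of each gene in the 4 comparisons, from edgeR. All intervals hold 0 except that of Cd68 in PTS versus CSAA (-1.06 to -0.08), and the intervals of Cd163 are the widest.

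Over the 19 rats the share of variation between rat numbers was larger than that between diets for all 9 genes. Diet accounted for 1.23% (Fcgr3a) to 27.9% (Cd68) of the sum of squares of log2(CPM + 1) over 19 rats, beside a median of 11.9% for all tested genes; these shares are descriptions, and the number has 5 levels against 4 diets. The replicate number accounted for 61.1% for Csf1r, 55.9% for Fcgr3a, 52.4% for Spi1, 47.5% for Lyz2, 47.4% for Cd68 and 70.3% for Cd163, and for 32.8% for Fcgr1a, 19% for Cebpb and 10.7% for Cd14, beside a median of 36.1% for all tested genes (quartiles 23.2% and 49.1%). Without the fifth rats the share fell to 18.7% for Csf1r and 17.7% for Cd163 but was 60.3% for Spi1 and 48.8% for Cd68, against a median of 22.8%. There the share of diet was the larger for Fcgr1a (25.8% against 11.8%) and Cebpb (24.2% against 13.2%). Rat3 was the lowest of every diet for Spi1, and for Cd68 it was the lowest of CSAA, RSV and CGA and next to the lowest of PTS. The paper states that rats shared cages and sequencing lanes. The sources used here do not say whether the numbers mark a cage, a day or a lane.

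Over the 19 rats several of the genes varied together. Of 36 pairs, 13 passed a Benjamini-Hochberg adjusted p of 0.05 for Pearson's r of log2(CPM + 1), by permutation, and 8 of 36 passed over the 15 rats without the fifth ones. The permutations shuffled the rats freely and take no account of diets, rat numbers or shared cages. The p-values of the pairs therefore treat all rats as independent. Csf1r and Fcgr3a had r = 0.861 (permutation p = 2e-05, adjusted p = 0.00036) and rho = 0.805 (permutation p = 8e-05, adjusted p = 0.00144), with r = 0.823 without the 2 rats farthest in Csf1r, r = 0.872 within diets and r = 0.782 over 15 rats. Lyz2 and Fcgr1a had r = 0.821 (permutation p = 2e-05, adjusted p = 0.00036) and rho = 0.847 (permutation p = 2e-05, adjusted p = 0.00072), with r = 0.806 without the 2 farthest, r = 0.810 within diets and r = 0.827 over 15 rats. Of the antibody receptors, Fcgr3a had its highest r in the set with Csf1r and Fcgr1a its highest with Lyz2, while Fcgr3a and Lyz2 had r = 0.403 (permutation p = 0.0886, adjusted p = 0.168) and rho = 0.425 (permutation p = 0.072, adjusted p = 0.162), with r = 0.536 without the 2 farthest. Csf1r and Fcgr1a had r = 0.689 (permutation p = 0.00117, adjusted p = 0.00842) and rho = 0.735 (permutation p = 0.00047, adjusted p = 0.00558), with r = 0.617 without the 2 farthest. Fcgr3a and Fcgr1a had r = 0.542 (permutation p = 0.0167, adjusted p = 0.0463) and rho = 0.525 (permutation p = 0.0228, adjusted p = 0.0747), with r = 0.429 without the 2 farthest. The differences between these coefficients were not tested. In every pair the 2 farthest rats were picked by 1 gene only, so that extremes of the other gene could remain.

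Cebpb varied with Fcgr1a, r = 0.698 (permutation p = 0.00071, adjusted p = 0.00842) and rho = 0.726 (permutation p = 0.00062, adjusted p = 0.00558), with r = 0.681 without the 2 rats farthest in Fcgr1a and 0.683 within diets. It also varied with Fcgr3a, r = 0.695 (permutation p = 0.00099, adjusted p = 0.00842) and rho = 0.630 (permutation p = 0.00496, adjusted p = 0.0255), with r = 0.585 without the 2 rats farthest in Fcgr3a and 0.732 within diets. Neither relation was computed without CSAA+PTS Rat2 and Rat3, the 2 rats highest in Cebpb. Cd68 and Spi1 had r = 0.643 (permutation p = 0.003, adjusted p = 0.018) and rho = 0.646 (permutation p = 0.00346, adjusted p = 0.0208), with r = 0.539 without the 2 farthest and 0.605 within diets. Lyz2 and Spi1 had r = 0.603 (permutation p = 0.00579, adjusted p = 0.0216) and rho = 0.474 (permutation p = 0.0408, adjusted p = 0.113), with r = 0.360 without the 2 farthest. Fcgr3a and Spi1 did not pass, with r = 0.057 (permutation p = 0.816, adjusted p = 0.918) and rho = 0.1 (permutation p = 0.684, adjusted p = 0.724). The relation of the transcription factors to each other did not pass: Spi1 and Cebpb had r = 0.064 (permutation p = 0.793, adjusted p = 0.918) and rho = 0.230 (permutation p = 0.343, adjusted p = 0.494), with r = 0.281 without the 2 farthest.

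Some relations rested on the fifth rats. Csf1r and Cd163 had r = -0.593 (permutation p = 0.00601, adjusted p = 0.0216) and rho = -0.491 (permutation p = 0.0354, adjusted p = 0.106), with r = -0.588 without the 2 farthest rats in Csf1r, but r = -0.188 over the 15 rats without the fifth ones. Cd163 and Fcgr3a went from r = -0.583 (permutation p = 0.00762, adjusted p = 0.0249) and rho = -0.336 (permutation p = 0.158, adjusted p = 0.299) to r = 0.0524 over the 15 rats and -0.241 without the 2 farthest. Csf1r and Lyz2 went from r = 0.632 (permutation p = 0.00391, adjusted p = 0.0201) and rho = 0.707 (permutation p = 0.00115, adjusted p = 0.00828) to r = 0.392, and had 0.514 without the 2 farthest.

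**Figure D4:**
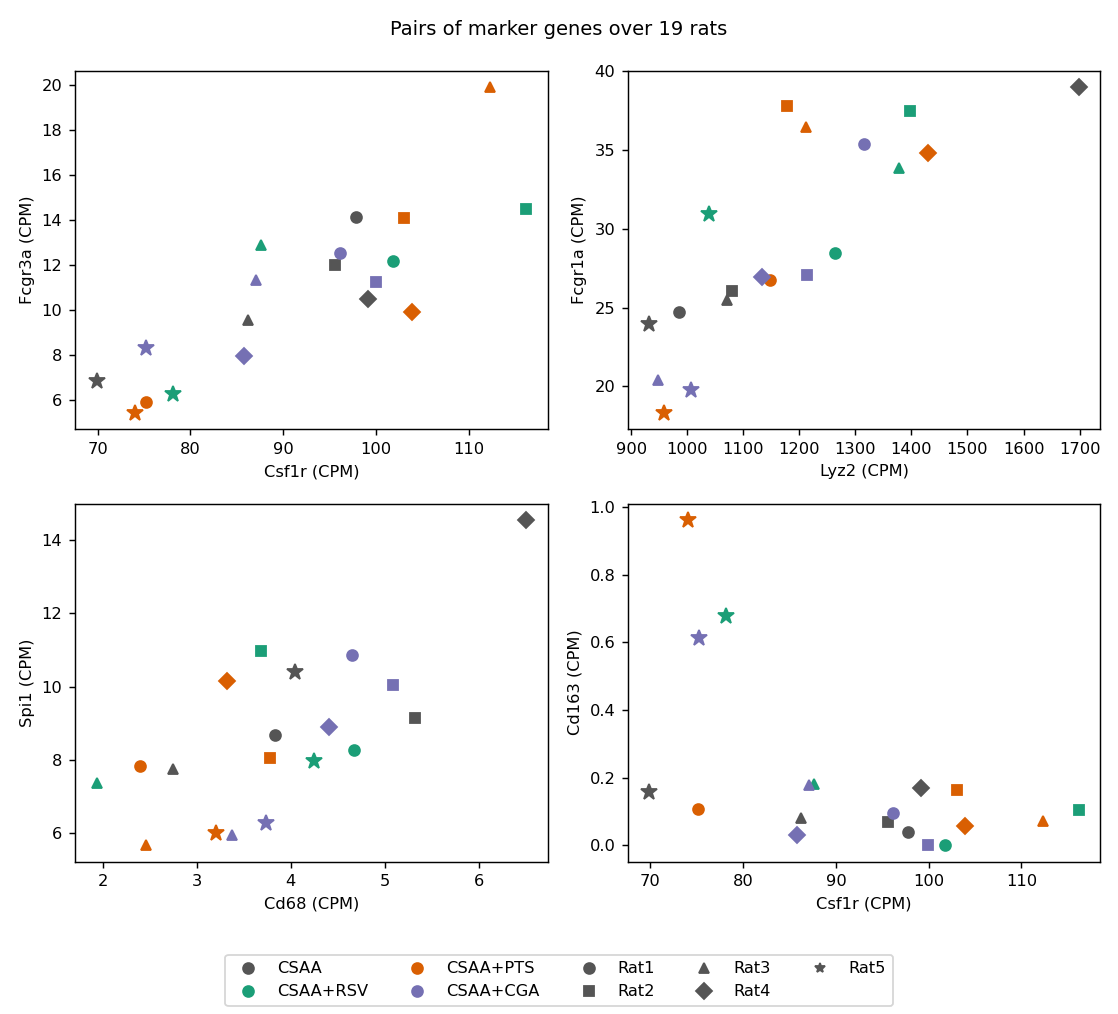
CPM of 4 pairs of genes, 1 point a rat, coloured by diet, with the symbol giving the rat number. Csf1r with Fcgr3a (r = 0.861) and Lyz2 with Fcgr1a (r = 0.821) run along a diagonal in all diets, Cd68 with Spi1 (r = 0.643) is looser, and in Csf1r with Cd163 the fifth rats (stars) of PTS, RSV and CGA stand alone.

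**Figure D5:**
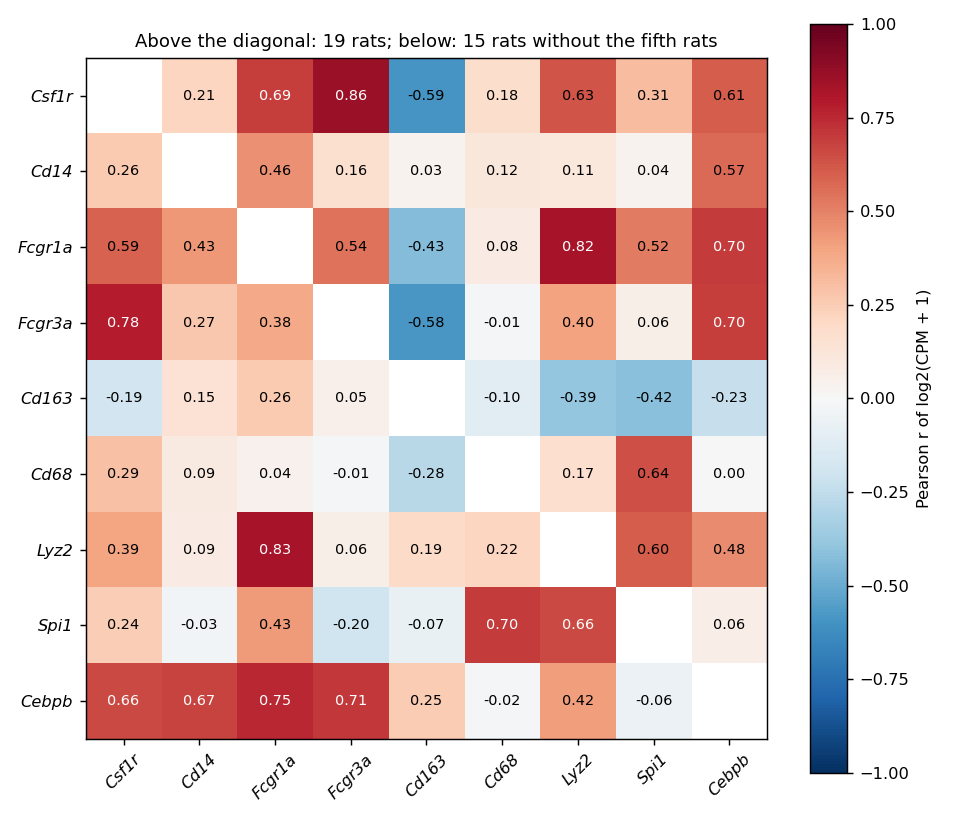
Pearson's r of log2(CPM + 1) between the 9 genes, over 19 rats above the diagonal and over the 15 rats without the fifth ones below it. The negative values of Cd163 above the diagonal (-0.593 with Csf1r, -0.583 with Fcgr3a) are near 0 or small below it.

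Among the 5325 genes of at least 10 CPM, those most like each gene by Pearson's r over the 15 rats were looked up as a description, with no test. Csf1r was most like Lman2 (r = 0.828) and Samsn1 (0.813), Fcgr3a most like Sod1 (0.807), Nkg7 (0.806) and Nrp1 (0.799), and Fcgr1a most like S100a9 (0.940), Alox5ap (0.939) and AABR07021402.1 (0.937). Spi1 was most like Fgr (0.950), Csf3r (0.942) and Themis2 (0.941), and Cd68 most like Rhog (0.946) and Trim8 (0.931). Cebpb was most like Ctss (0.895), Fkbp5 (0.888) and Tkt (0.879), and Cd14 most like Nampt (0.839), Evc2 (0.813) and S100a8 (0.804). Of these, S100a8, S100a9 and Csf3r belong to the neutrophil markers, and Nkg7 to those of natural killer cells. Lyz2 was most like Lyc2 (0.988), LOC102549714 (0.980) and Fcgr2b (0.943). Cd163 was most like Kmt2c (0.8293), Mapk8 (0.727) and Arl1 (0.686), and over 19 rats these had r of -0.354, -0.0161 and 0.0804.

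Of 79 other tested genes of the monocyte and macrophage lists, edgeR called 0 at an FDR of 0.05 in each comparison with CSAA. At an unadjusted p under 0.05, 1 was higher and 12 lower in PTS, beside 3.05% higher and 4.54% lower of all genes. RSV had 1 higher and 2 lower (background 1.21% and 0.914%), CGA had 0 and 0 (background 0.329% and 0.311%). Their median log2 fold change in PTS was -0.10, beside 0.02 over all tested genes. The direct comparison, PTS versus RSV, had 0 higher and 5 lower (background 0.717% and 2.34%).

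Among transcription factors of the myeloid line, 4 of 14 were lower in PTS at an unadjusted p under 0.05, beside 4.54% of all genes. Nr4a1, which non-classical monocytes require in the mouse, had -0.83 (SE 0.235, edgeR unadjusted p = 0.00229, adjusted p = 0.599), with 2.03 to 3.46 CPM in PTS against 2.87 to 6.67 CPM in CSAA, so that the groups overlap. Cebpa, the C/EBP factor of early myeloid cells, had -0.54 (SE 0.185) and Runx1 had -0.44 (SE 0.14). Irf8 and Klf4, which direct the monocyte line, were at 6.157 and 5.33 RPKM. In RSV, Nr4a1 had -0.53 (SE 0.248, unadjusted p = 0.0475). Cebpa had 0.02 in RSV (interval -0.38 to 0.43), and PTS versus RSV gave -0.56 (interval -0.97 to -0.15, unadjusted p = 0.00961, edgeR adjusted p = 1).

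Beside Csf1r, Csf2ra (the GM-CSF receptor alpha chain) had -0.52 in PTS (SE 0.19) and was the 1 of 7 tested genes of this axis at an unadjusted p under 0.05. Of all genes, 4.54% were lower and 3.05% higher in PTS at that p. Csf3r, the G-CSF receptor, was at 12.96 RPKM. Around Cd14, Lbp (-0.77, SE 0.344) and the adaptor Myd88 (-0.47, SE 0.178) were 2 of 10 lower in PTS at that p, while the kinase Irak1 was at 23.62 RPKM and the receptor Tlr2 at 7.006 RPKM. Around the Fc receptors, Inpp5d, a phosphatase that limits their signal, had -0.34 (SE 0.155), 1 of 12 at that p, which is near the 7.58% of all genes; the receptor Fcgr2a was at 40.51 RPKM and the phosphatase Ptpn6 at 36.42 RPKM.

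Of the lysosomal genes, Ctsc (cathepsin C) had 0.34 in PTS (SE 0.097, unadjusted p = 0.00249, edgeR adjusted p = 0.599) and Grn (progranulin) -0.52 (SE 0.224), beside Cd68. The cathepsin Ctsb was at 1086 RPKM, beside 990.1 RPKM for Lyz2. Rac2, a switch of the phagocyte oxidase, had -0.33 (SE 0.148) at 69.37 RPKM, and Cybb, the oxidase subunit that carries electrons, was at 17.11 RPKM. Sirpa, which binds the CD47 signal, had -0.49 in PTS (SE 0.203). Ftl1, the ferritin light chain, had -0.67 in PTS (SE 0.241) and -0.58 in RSV (SE 0.257), and the biliverdin reductase Blvrb was at 198 RPKM. C1qa, a complement gene of resident macrophages, had 1.85 in RSV (SE 0.81, unadjusted p = 0.0342, edgeR adjusted p = 0.9998) at means of 0.42 and 0.113 CPM in RSV and CSAA. That mean rested on RSV Rat3 and Rat5 (0.657 and 0.755 CPM). RSV Rat1 and Rat2 were at 0.0947 and 0.1754 CPM, against 0.0391 to 0.1751 CPM in CSAA. CSAA+CGA Rat5 was at 0.737 CPM, so that a high level was not particular to RSV. Erythroid markers were lower in PTS for 8 of 11 genes at an unadjusted p under 0.05, beside 4.54% of all genes. Their summed level was 45450 to 177800 CPM against 117200 to 220800 CPM in CSAA. Of the neutrophil markers 0 of 12 passed (summed over all 14 in the table, 448.4 to 1237 CPM in PTS, 556.7 to 974.5 CPM in CSAA). The part of the erythroid difference in these values was not tested. With hemoglobin genes out of the library totals, 0 of the 9 genes were called. As 0 were called in every other fit too, this count cannot decide that part.

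The left-out rat, CSAA+RSV Rat4, had 60 reads of Csf1r, or 69.3 CPM (exact Poisson 95% interval 52.9 to 89.2), and 1118 reads of Lyz2, or 1291 CPM (interval 1217 to 1369). It had 4 reads of Cd14, or 4.62 CPM (interval 1.26 to 11.83). It had 0 reads of Cd68 and of Cd163, for which 3 reads correspond to 3.465 CPM; 12 of the other 19 rats were above that level for Cd68 and 0 for Cd163, whose level was not detectable at this depth. Intervals cover counting error only.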

How the data were processed

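Whole blood RNA of 20 rats was sequenced from stranded TruSeq libraries. The authors deposited raw counts of reads per Ensembl gene with gene length; per the labels and methods, reads were trimmed with Trimmomatic 0.32, aligned with TopHat2 2.1 to rn6 and counted with Rsubread. The sources used here do not give the strand setting. The 9 genes and all gene lists were chosen with earlier results of these data known. A gene was kept when at most 4 of the 19 rats had under 2 reads. The counts were tested by quasi-likelihood in edgeR 4.0.16 (TMM scaling, diets as groups, 95% intervals) and Benjamini-Hochberg adjustment over 16734 genes; CPM and RPKM use the TMM library sizes. DESeq2 1.42.0 and limma 3.58.1 were alternatives, run in R 4.3.3, and the scripts were tested on simulated data. Pairs of genes were tested with 100000 permutations, free over diets and rat numbers. Named beside the 9 genes are, of each list, the 2 with the highest CPM and those at an unadjusted p under 0.05 (at most 4), and the 3 genes most like each. Some genes that this rule names are not reported here.

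CSAA and CSAA+PTS rats of the same number deviated together (r of deviations 0.145 to 0.52 in 5 of 5 pairs). In 4 of 5 pairs this r was above that with any CSAA rat of another number. CSAA+PTS Rat2 had 0.145 with its own number and up to 0.542 with another, so that the numbers pair most but not all of these samples by the data. No label says what the numbers mark. In the sample descriptions the fifth pair has the rat numbers 17 and 23 and the others lie in 1 set of 4 each. With the replicate block, PTS versus CSAA had 0 genes called and 2039 instead of 1269 at an unadjusted p under 0.05 (12.2% and 7.58%); in both fits 0 of the 9 genes were called.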

Additional observations from a re-analysis of the deposited data

Results flagged for a closer look

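In 4 of 36 groups of 4 or 5 rats, 1 rat lay far from the others of its diet for a gene of the set, by Dixon's 95% criterion; chance gives about 5% of groups. Cd14 was at 5.74 CPM in CSAA+PTS Rat2, with the next rat of the diet at 2.32 CPM. Lyz2 was at 1699 CPM in CSAA Rat4, with the next at 1080 CPM, and Fcgr1a at 38.97 CPM in the same rat, with the next at 26.06 CPM; this rat also had the highest sum of the 19 rats for the monocyte genes (659.1 CPM), the Fc receptor genes (813.9 CPM), the myeloid transcription factors (112.1 CPM), the CSF receptor axis (224.3 CPM), the oxidase genes (285.1 CPM) and the eosinophil and basophil markers (55.2 CPM), and the second highest for neutrophil markers (974.5 CPM). Cd163 was at 0.962 CPM in CSAA+PTS Rat5, with the next at 0.163 CPM. No cause was tested.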

How the results depend on the processing

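In PTS versus CSAA, DESeq2 called 6 genes and limma with sample weights 26, and each called 1 in PTS versus RSV, where edgeR called 0. Leaving out a rat gave 0 to 8 genes in PTS versus CSAA, with 8 without CSAA+PTS Rat2. None of the 9 genes was called under any setting, and their lowest adjusted p was 0.213. Genes at an unadjusted p under 0.05 in PTS, RSV and CGA versus CSAA were 1961, 1136 and 311 with no filter on low counts against 1269, 355 and 107. With limma they were 2376, 1111 and 743, and 841 in PTS versus RSV against 512; with only the diets compared CGA had 246 and PTS versus RSV 311; without the fifth rats RSV had 537 and CGA 252. Rats of the same number deviated together, at r over 0.1, in 3 of 4 pairs for RSV versus CSAA (r of -0.256 to 0.691). They did so in 2 of 5 for CGA versus CSAA (-0.158 to 0.603) and 3 of 4 for PTS versus RSV (-0.081 to 0.735). The r with the own number was above that with any other number in 2 of 4, 2 of 5 and 2 of 4 pairs. The numbers thus pair some of these rats and not others. With the replicate block 620, 181 and 970 genes were at that p, 0 were called, Fcgr3a had -0.0172 in PTS and Cebpb -0.004 in PTS versus RSV, and no call changed. The block without the fifth rats, chosen after seeing the data, called 0, 0, 0 and, in PTS versus RSV, 2 genes, with 2043, 572, 324 and 622 at that p, and gave Cd163 -0.1158 in RSV and -0.3564 in CGA. The pairs of genes that passed were 8 without the fifth rats against 13. Of 424 log2 fold changes of the 9 genes under alternatives, 14 changed sign, 4 of them with a block: limma gave -0.28 for Fcgr3a in PTS, -0.50 for Cd163 in RSV, 0.0641 for Lyz2, -0.18 for Cd163 and 0.0167 for Fcgr1a in CGA, and -0.43 for Cebpb in PTS versus RSV. All 20 rats gave 0.0334 for Csf1r in PTS versus RSV. Without the fifth rats Cd163 had -0.0434 in RSV and -0.30 in CGA, and Fcgr1a 0.034 in PTS versus RSV. Of the 424, 36 belong to the exact permutation test and repeat the main value, so that their sign could not change. Cd163 was removed by the filters with all 20 rats and at 1 CPM, and has no value there. Leaving out 1 rat turned the sign of 43 of 342 values. The ranges in CGA vs CSAA were Cd14 -0.0026 to 0.15, Cd163 -0.46 to 1.12, Cd68 -0.22 to 0.0897, Csf1r -0.0927 to 0.0394, Fcgr1a -0.24 to 0.0488, Fcgr3a -0.17 to 0.0791 and Lyz2 -0.11 to 0.14. The ranges in PTS vs CSAA were Cd163 -0.13 to 1.62, Csf1r -0.0159 to 0.14, Fcgr3a -0.27 to 0.23 and Lyz2 -0.0382 to 0.22. The ranges in PTS vs RSV were Cd14 -0.25 to 0.36, Cd163 -1.32 to 1.54, Cebpb -0.18 to 0.26, Csf1r -0.12 to 0.096, Fcgr1a -0.15 to 0.0552 and Fcgr3a -0.38 to 0.12. The ranges in RSV vs CSAA were Cd163 -0.18 to 1.60, Csf1r -0.0029 to 0.18 and Fcgr3a -0.0137 to 0.32. The causes were not tested. Depth limited Cd163, with 0 to 33 reads a rat.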
